A study of Caenorhabditis elegans with 9 samples.

Results

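Whole Caenorhabditis elegans in which RPOA-2 was depleted from the hypodermis were compared at 24 h with control animals of the same series at 18 h, that is, with a younger state. The comparison holds 5 libraries, 3 of hypodermal depletion and 2 of the 18 h controls. Of the 13246 genes listed in at least 1 of the 9 libraries of the series, 10796 were listed in at least 2 of these 5 and form the set described here. The question is which genes departed from the 18 h state as well as from the 24 h state, so that the level at 18 h does not describe them either. Controls were taken at these 2 ages only. A level that controls have at an earlier age, or at another point of a molt cycle, was not measured and cannot be told apart from an effect of depletion.

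All animals carried degron::GFP::rpoa-2, which fuses the RNA polymerase I subunit RPOA-2 to GFP and to a degron, a tag that the plant protein TIR1 binds when the auxin IAA is added, after which the tagged protein is degraded. The hypodermal animals also carried col-10p::TIR1, with TIR1 driven by the promoter of a cuticle collagen, and were on 1 mM IAA for 24 h (n = 3). The controls carried no TIR1, had no IAA and were taken at 18 h (n = 2) or 24 h (n = 2). A further group carried eft-3p::TIR1, from the promoter of a translation elongation factor used to express a protein in most somatic cells, on 1 mM IAA for 24 h (n = 2), and is called global depletion. Synchronized eggs were the starting point in every group and growth was at 16 °C. TIR1 and IAA were present in both depleted groups and in no control, so their own effects cannot be told apart from those of depletion, and in the comparison with the 18 h controls the time on the plates differs too. The labels do not say that replicates came from separate cultures, so the p-values measure the spread between these libraries, which may be technical. The labels give the tissue as whole worm and also use the word embryo, and the stage at harvest is not given in the sources used here.

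RNA polymerase I makes the precursor of the large ribosomal RNAs, and RPOA-2 belongs to its catalytic core. The hypodermis is the worm's skin: it secretes a collagen cuticle, which is rebuilt at each molt in waves of collagen genes, and lays down a temporary apical matrix of lipocalins, zona pellucida proteins and hedgehog-related proteins before each new cuticle. It is also a site of fat and intermediary metabolism. The libraries were made from whole animals, so fewer cells of a type and less RNA per cell cannot be told apart.

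The 18 h control libraries were the shallowest, with 197970 and 166455 counts, against 2134185, 1518298 and 781648 in hypodermal depletion and 324321 and 506659 in the 24 h controls. The deposited table lists no count below 3. After scaling, 3 counts stood for 14.8 and 18.1 counts scaled to a total of 1e6 (CPM) in the 18 h controls and for 1.44 to 3.89 CPM in the hypodermal libraries, so a gene unlisted in the controls may have been present at a moderate level. Of the 10796 genes, 3169 were unlisted in both 18 h control libraries and 13 in all 3 hypodermal libraries. Genes just inside the rule, listed in exactly 2 of the 5 libraries, numbered 1321 with a median highest count of 7, and the 1697 genes listed in exactly 1 library, just outside it, had a median highest count of 4. The floors of 3 counts are the listing cutoff and allow for neither counting error nor the spread between libraries. The test ran on 8026 genes, 8006 of them in the set, and the other 2790 genes of the set were too low to be tested.

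The mRNA of rpoa-2 itself (chromosome I, 9280963 to 9286577, WBcel235) was at 290, 279 and 238 CPM in the hypodermal libraries and at 187 and 272 CPM in the 18 h controls, a log2 difference of 0.25 (SE 0.26, edgeR adjusted p = 0.568). The groups overlapped, and since the degron acts on the protein this transcript says nothing on whether RPOA-2 was removed. 4 further genes were followed because their promoters or other elements are common in TIR1 transgenes. The elongation factor gene eef-1A.1 had a log2 difference of 0.32 (adjusted p = 0.278), the muscle myosin gene unc-54 -0.11 (adjusted p = 0.746) and unc-119 -1.33 (adjusted p = 0.108), none past the threshold of 0.05. The collagen gene col-10, whose promoter drives TIR1 here, was at 1178 and 1379 CPM in the 18 h controls and at 443, 416 and 446 CPM in hypodermal depletion, and fell by 1.55 on the log2 scale (SE 0.20, adjusted p = 1.41e-07). It was also lower than in the 24 h controls, which were at 1006 and 709 CPM (log2 difference -0.97, adjusted p = 0.000911).

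Against the 18 h controls, 1038 of the 8006 genes passed the threshold (13%), 438 higher (5.47%) and 600 lower (7.49%). A change of at least 2-fold was fitted for 846 of them, and 117 differed by at least 8-fold, 85 lower and 32 higher. Of the genes called higher, 78 were unlisted in both 18 h libraries and 307 were listed in both. Of the genes called lower, 9 were unlisted in all 3 hypodermal libraries. The median log2 difference over all genes tested was 0.03, or -0.11 with the 961 genes unlisted in every library of a group placed at their bound or, where unlisted in both groups, at 0. With size factors from the median of ratios this median moved by more than 0.1, from 0.0287 to -0.0853, and the calls then split into 317 higher and 725 lower. Depth and the values given to unlisted counts also moved the split: with unlisted counts as 0 in place of 1, 970 genes were higher and 285 lower.

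Against the 24 h controls, the same genes gave 392 calls (4.9%), 133 higher (1.66%) and 259 lower (3.24%). The 24 h controls differed from the 18 h controls in 246 genes (3.07%), 75 higher (0.937%) and 171 lower (2.14%). A set of 78 genes (0.974%) was higher in hypodermal depletion than in controls of both ages, which is 17.8% of the genes higher than 18 h and 58.6% of those higher than 24 h. Another 147 genes (1.84%) were lower than in both, which is 24.5% of the genes lower than 18 h and 56.8% of those lower than 24 h. Both comparisons use the same 3 hypodermal libraries, so a deviation of those libraries enters both. No gene was called between the ages, higher than in controls of 1 age and lower than in controls of the other, by edgeR, with 29 at an unadjusted p under 0.05 and 1 by DESeq2. The remaining 360 genes higher and 453 lower than at 18 h were not called against 24 h, and a p that misses the threshold does not show that they matched the 24 h state.

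**Figure D1:**
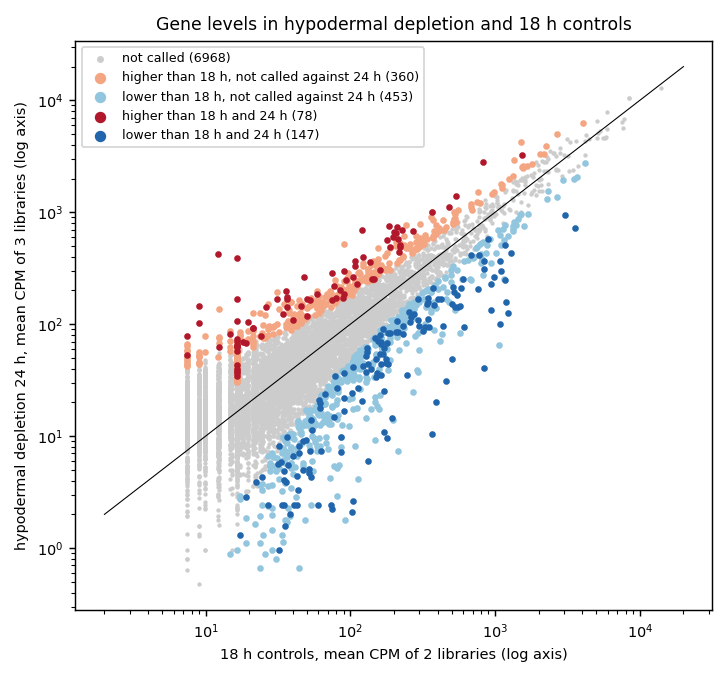
Mean CPM of each of the 8006 tested genes in the 18 h controls (horizontal axis, log scale) and in hypodermal depletion (vertical axis, log scale), with an unlisted library taken as 0 and a group unlisted throughout drawn at its mean value of 3 counts, which gives the vertical bands at the left. Dark points are the 78 genes above and the 147 genes below controls of both ages, and light points the 360 and 453 genes called against 18 h but not against 24 h.

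Of the gene lists described here, cuticle collagens had the most genes lower than in both ages. Of 111 collagen genes listed in the series, 59 were tested, and 32 of them were lower and 1 higher than at 18 h, with a median log2 difference of -1.97 (-2.01 with unlisted groups at their bound). That is 55.9% called, against 13% among all genes. Against the 24 h controls 28 were lower and 3 higher, with a median of -1.12 (-1.20 at the bound), and 21 were lower than both. Summed over the family, collagen mRNA stood at 10852 and 11463 CPM in the 18 h controls and at 3995, 4044 and 3212 CPM in hypodermal depletion. The 24 h controls were in between, at 8017 and 9422 CPM. Whether reads shared between near-identical collagen genes were split in the authors' counting is not given in the sources used here, so single members are less certain than the family.

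The collagen genes fell into patterns that differed in how the controls themselves aged. In the first, the transcript was present in all 4 control libraries and unlisted in every hypodermal library. dpy-8, a furrow collagen gene (chromosome X, 5148804 to 5150476, WBcel235), was at 98.6 and 48.4 CPM in the 18 h controls and at 156 and 137 CPM in the 24 h controls. It was unlisted in all 3 hypodermal and both global libraries, so its level was at least 30-fold lower than at 18 h (adjusted p = 5.37e-10) and at least 59.9-fold lower than at 24 h. dpy-5, a collagen needed for body shape (chromosome I, 5432158 to 5433054), was at 88.7 and 30.2 CPM at 18 h, at 102 and 171 CPM at 24 h and unlisted in all 5 depleted libraries, at least 24.3-fold lower than at 18 h (adjusted p = 1.4e-08). Both genes were thus below the level of either age, and not only below the later one.

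dpy-13, col-90, dpy-4 and col-73 followed the same pattern. col-90 was at 49.3 and 36.3 CPM at 18 h, and unlisted under depletion, at least 17.5-fold lower (adjusted p = 1.07e-06). dpy-4 went from 39.4 and 30.2 CPM at 18 h to 165 and 149 CPM at 24 h in controls (log2 difference 2.15, adjusted p = 0.0116) and was unlisted in hypodermal depletion, at least 14.2-fold lower than at 18 h and at least 64.3-fold lower than at 24 h. dpy-13 rose likewise in controls, from 49.3 and 18.1 to 118 and 205 CPM, and was at least 13.8-fold lower than at 18 h in depletion (adjusted p = 6.16e-06). For dpy-4 and dpy-13 the controls rose with age (adjusted p = 0.0103 for dpy-13) while depletion lay below the younger state. col-73 (29.6 and 24.2 CPM at 18 h), picked after its values were seen, was at least 11-fold lower, and with all libraries thinned to the shallowest depth its adjusted p was 0.137. sqt-1, another body shape collagen, was at 148 and 60.5 CPM at 18 h and 181 and 248 CPM at 24 h. In hypodermal depletion it was unlisted in replicate 1 and at 2.68 and 5.18 CPM in the others, a log2 difference of -5.55 (SE 0.59, adjusted p = 9.17e-10).

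Of the 5 tested furrow collagens, whose proteins form the circumferential furrows of the cuticle, dpy-8 alone passed the threshold against 18 h, and all 5 passed it against 24 h. dpy-7, dpy-3, dpy-10 and dpy-2 were near the floor at 18 h. dpy-7 was at 24.7 CPM in the first 18 h library and unlisted in the second, and dpy-2 was unlisted in both. Against 18 h, 3 of the 5 were lower at an unadjusted p under 0.05, and 3 were called with unlisted counts as 2, so these calls moved with the value given to unlisted counts.

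In a second pattern the collagen was abundant at both ages. col-160 was at 966 and 907 CPM in the 18 h controls and 840 and 961 CPM in the 24 h controls, a difference that did not pass the threshold (adjusted p = 0.936). Hypodermal libraries had 206, 290 and 194 CPM, below every control library, a log2 difference of -2.02 from 18 h (SE 0.21, adjusted p = 3.97e-10) and of -1.96 from 24 h (adjusted p = 3.93e-10). col-166 moved the same way by less: it was at 1001 and 1355 CPM at 18 h and at 610, 551 and 373 CPM in depletion (log2 difference -1.19, adjusted p = 5.44e-05), and was named after its values were seen.

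A further group of collagens was high at 18 h and lower at 24 h in controls, and lower again in depletion. col-107 was at 1114 and 1343 CPM at 18 h, at 334 and 562 CPM at 24 h and at 117, 150 and 109 CPM in hypodermal depletion, a log2 difference of -3.28 from 18 h (SE 0.23, adjusted p = 1.21e-15) and of -1.84 from 24 h (adjusted p = 3.91e-08). col-39 was at 1050 and 1101, then 277 and 258, then 115, 107 and 77.7 CPM, with a log2 difference of -3.40 from 18 h (adjusted p = 8.46e-17). col-125 was at 685 and 998 CPM at 18 h, at 143 and 123 at 24 h and at 38.5, 40.9 and 41.5 CPM in depletion, with a log2 difference of -4.38 from 18 h (adjusted p = 4.6e-18) and of -1.72 from 24 h (adjusted p = 1.83e-05). In each of the 3 genes no hypodermal library overlapped a control of either age.

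Other collagens differed from 18 h with no call against 24 h. col-130 went from 163 and 266 CPM at 18 h to 12.7 CPM and unlisted at 24 h in controls, and was at 4.81, 10.7 and 6.48 CPM in hypodermal depletion, a log2 difference of -4.85 from 18 h (adjusted p = 3.13e-10) and of 0.19 from 24 h (SE 0.82, adjusted p = 0.947). col-12 was at 74 and 109 CPM at 18 h and unlisted in both 24 h controls, and of the hypodermal libraries 1 listed it, at 5.36 CPM. The single collagen higher than at 18 h was col-42, at 247 and 266 CPM against 586, 537 and 438 CPM (log2 difference 1.03, adjusted p = 0.00235), and its 24 h controls were at 477 and 719 CPM.

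**Figure D2:**
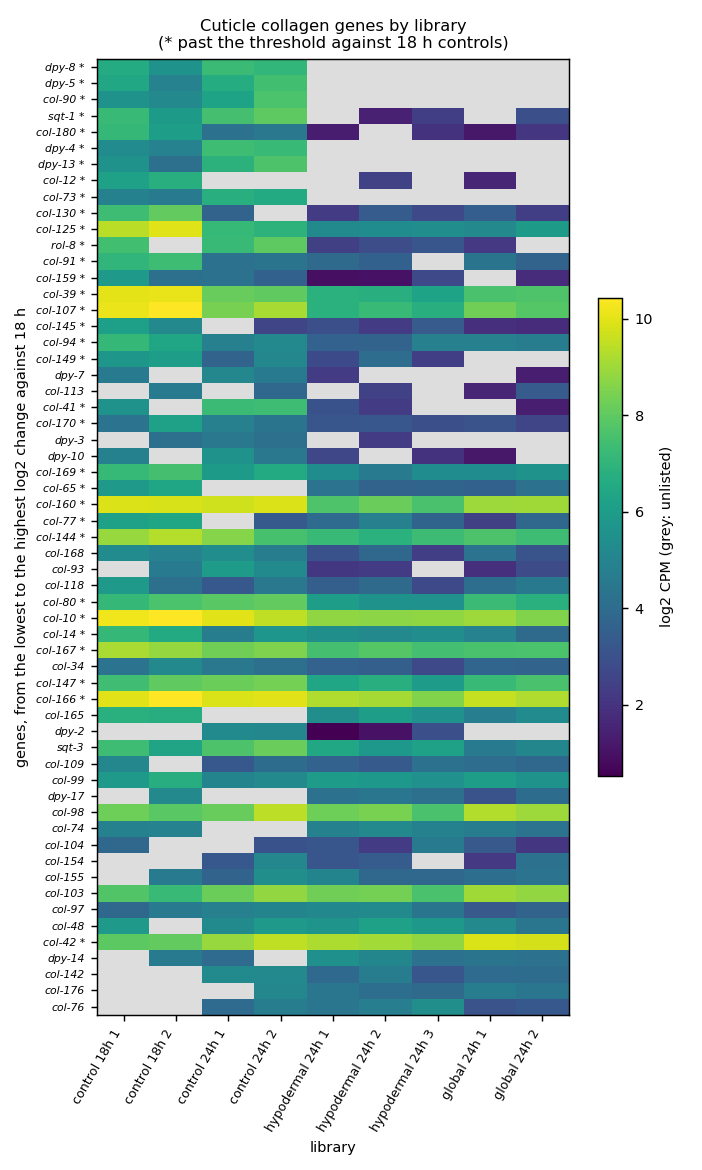
Level of the 59 tested cuticle collagen genes (rows, from the lowest to the highest log2 difference against 18 h) in each of the 9 libraries (columns), as log2 CPM in colour with unlisted values in grey. At the top, dpy-8, dpy-5 and col-90 are listed in all 4 control libraries and unlisted in the 5 depleted ones, and lower down col-160 and col-10 keep a level in depletion below both control ages.

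Molting and apical matrix genes, which build and shed the cuticle, were called in a single direction against 18 h. Of 26 tested, 10 were lower and 0 higher, with a median log2 difference of -1.32, and 8 of them were also lower than at 24 h. The share called against 18 h was 38.5%, with 13% among all genes. mlt-11, a protease inhibitor-like protein of the molting machinery (chromosome V, 20667211 to 20678513), was at 542 and 369 CPM at 18 h and at 551 and 622 CPM at 24 h, and had 43.3, 25.5 and 24.6 CPM in the hypodermal libraries. All 3 were far below the 4 controls, with a log2 difference of -3.82 from 18 h (SE 0.27, adjusted p = 3.34e-15) and of -4.17 from 24 h (adjusted p = 5.34e-17).

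Some genes of the temporary matrix were lower too, several of them resting on 1 control library. sym-1, a leucine-rich repeat protein of the apical matrix, was at 197 and 127 CPM at 18 h and at 47.6, 40.2 and 44.1 CPM in depletion, a log2 difference of -1.89 (SE 0.33, adjusted p = 5.13e-05). The lipocalin gene lpr-3 was at 69 and 18.1 CPM at 18 h and at 3.37, 2.68 and 3.89 CPM in depletion, a log2 difference of -3.75 (SE 0.70, adjusted p = 0.00011). Neither overlapped, but both rest on the first 18 h control library: without it the adjusted p was 0.0532 for sym-1 and 0.277 for lpr-3. Of genes picked after their values were seen, the zona pellucida genes noah-1 and noah-2 had log2 differences of -1.32 and -1.57 and the molting gene mlt-8 of -2.62, and their adjusted p without that library was 0.675, 0.186 and 0.123. The lipocalin lpr-5 (49.3 and 54.4 CPM against 2.89, 3.35 and 9.07 CPM) and mlt-10 (64.1 and 60.5 CPM against 11.5, 6.7 and 3.89 CPM), picked in the same way, had log2 differences of -3.50 and -2.95 (adjusted p = 0.000121 and 0.000219). Both calls held when any single library was left out. Without that first library the list as a whole had 4 genes lower in place of 10.

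mlt-7, a peroxidase thought to cross-link cuticle collagen, was the named member of this list that was called against 18 h and not against 24 h. It was at 271 and 315 CPM at 18 h, 110 ± 12 CPM (SD, n = 2) at 24 h and 76, 96.5 and 77.7 CPM in depletion, a log2 difference of -1.80 from 18 h (adjusted p = 1.7e-06) and of -0.41 from 24 h (adjusted p = 0.46). Among 12 tested regulators of the molt cycle, the period homolog lin-42 alone passed the threshold, a share of 8.33% against 13% among all genes. It was at 93.7 and 60.5 CPM at 18 h and at 19.7, 10 and 14.3 CPM in depletion, a log2 difference of -2.37 (SE 0.45, adjusted p = 0.000184, and 0.0685 without the first 18 h library). Its 24 h controls were higher, at 178 and 143 CPM, and the log2 difference from them was -3.40 (adjusted p = 7.29e-10).

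Hedgehog-related and patched-related genes, which in C. elegans are expressed largely in epithelia and include matrix and molting factors, were tested for 30 of 64 members. Of these, 15 were lower and 1 higher than at 18 h (median log2 difference -1.37), a share of 53.3% against 13% among all genes. Leaving out either 18 h library left 9 lower, and taking unlisted counts as 0 left 8. Against 24 h 8 were lower, and 7 were lower than both. grd-10 was at 173 and 169 CPM at 18 h, 102 and 94.7 CPM at 24 h and 25.5, 22.1 and 28.5 CPM in depletion, a log2 difference of -2.76 (SE 0.34, adjusted p = 1.99e-08). grd-13 was at 227 and 163 CPM at 18 h and at 16.8, 16.7 and 10.4 CPM in depletion, a log2 difference of -3.67 (SE 0.40, adjusted p = 1.21e-09), with 22.3 and 70.5 CPM at 24 h. Both lay below the controls of either age, while grl-21, at 197 and 200 CPM at 18 h, reached 11.5, 8.71 and 22 CPM in depletion where the 24 h controls had 35 and 16.1 CPM. Its log2 difference from 18 h was -3.91 (adjusted p = 1.78e-09), and against 24 h the log2 difference was -0.88 (SE 0.54, adjusted p = 0.419). The single member higher than at 18 h was the patched-related gene ptr-13, unlisted in both 18 h libraries and at 44.3, 45.6 and 55.7 CPM in depletion, at least 2.95-fold higher (adjusted p = 0.00437, and 0.078 without the first 18 h library).

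A smaller group of metabolic genes was below both ages. icl-1 (chromosome V, 724207 to 728103), the bifunctional glyoxylate cycle enzyme that lets the worm make sugar from stored fat, was at 3501 and 3654 CPM at 18 h and at 3307 and 3452 CPM at 24 h, with 755, 762 and 645 CPM in hypodermal depletion. Its log2 difference was -2.31 from 18 h (SE 0.19, adjusted p = 4.66e-13) and -2.23 from 24 h (adjusted p = 1.16e-12), while the controls of the 2 ages did not differ past the threshold (adjusted p = 0.889). acs-2, an acyl-CoA synthetase of fatty acid oxidation, was at 173 and 90.7 CPM at 18 h, 165 and 117 CPM at 24 h and 4.33, 4.69 and 9.07 CPM in depletion, a log2 difference of -4.58 (SE 0.47, adjusted p = 3.26e-10). In both genes every hypodermal library was below every control library.

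cpt-1, a carnitine palmitoyltransferase of mitochondrial fatty acid import, fell by 2.22 (adjusted p = 1.91e-11), from 1311 and 1016 CPM to 302, 236 and 207 CPM, with 710 and 655 CPM in the 24 h controls. pyc-1, pyruvate carboxylase, was at 927 and 629 CPM at 18 h and 435, 403 and 407 CPM in depletion, a log2 difference of -0.91 (adjusted p = 0.0017, and 0.32 without the first 18 h library). acer-1, picked after its values were seen, was at 1095 and 1065 CPM at 18 h, 1216 and 941 CPM at 24 h and 368, 377 and 360 CPM in depletion (log2 difference -1.55, adjusted p = 7.52e-08). Few members of these lists were below both ages, 2 of the fatty acid oxidation and lipase genes and 2 of the citric acid and glyoxylate cycle genes. Of 48 tested fatty acid oxidation and lipase genes 8 were lower (5 without the first 18 h library) and 5 higher (2 without either) than at 18 h, with a median of -0.33. That is 27.1% called, against 13% among all genes. Of 30 tested genes of the citric acid and glyoxylate cycles 3 were lower and 0 higher, with a median of -0.08. The share called was 10%, against 13% among all genes.

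**Figure D3:**
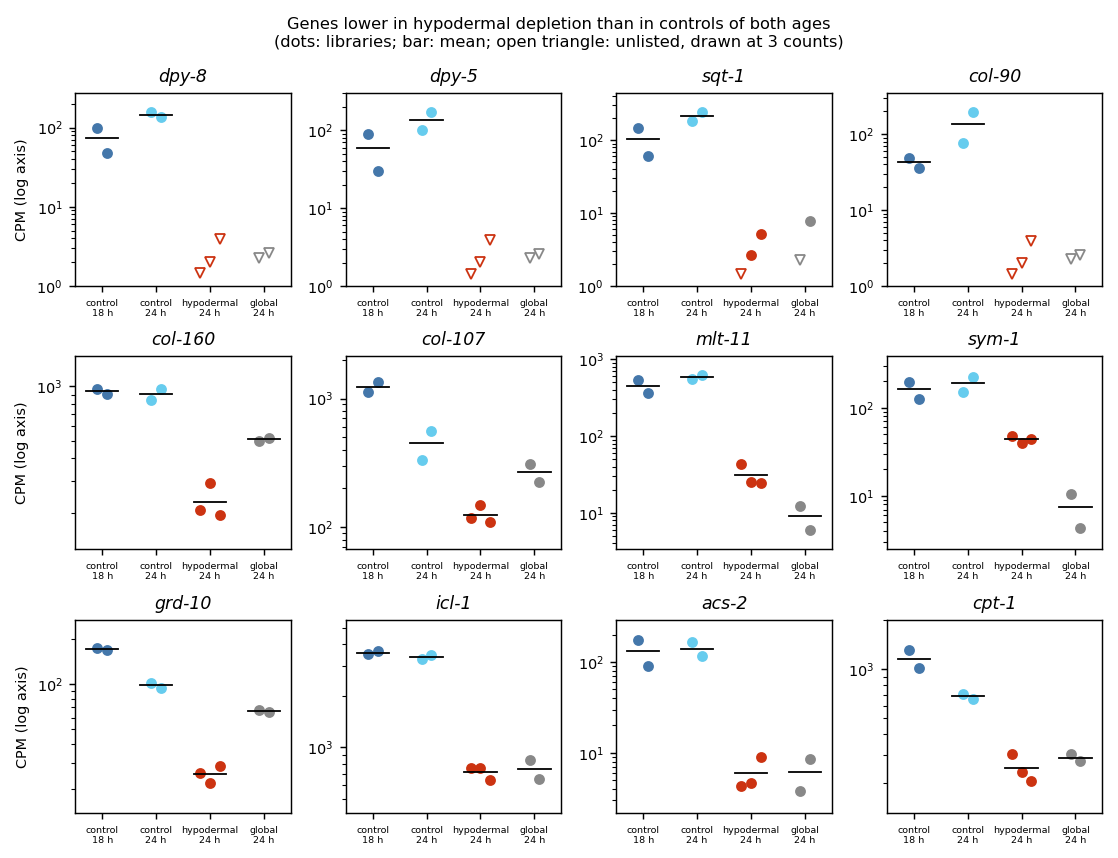
CPM (log axis) of 12 genes lower in hypodermal depletion than in controls of both ages, by group, with dots for libraries, bars for means and open triangles for unlisted libraries drawn at 3 counts. In the top row dpy-8, dpy-5 and col-90 are unlisted in all depleted libraries, and in the bottom row icl-1 lies at 645 to 762 CPM in the 3 hypodermal libraries and at 3307 to 3654 CPM in all 4 controls.

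Among the genes higher than in both ages were 2 pud genes. pud-3 (chromosome V, 2324510 to 2326827), of a family named for proteins raised in daf-2 insulin receptor mutants, was at 282, 431 and 448 CPM in the hypodermal libraries and unlisted in all 4 control and both global libraries. Its level was at least 23.5-fold higher than at 18 h (adjusted p = 3.27e-12) and at least 49.7-fold higher than at 24 h. pud-4 (chromosome V, 2326678 to 2327262) was at 102, 108 and 109 CPM, unlisted in both 18 h controls and in the first 24 h control and at 6.04 CPM in the second, at least 6.46-fold higher than at 18 h (adjusted p = 9.55e-06). Both were unlisted in global depletion, against which pud-3 was at least 160-fold and pud-4 at least 43.9-fold higher. The 2 genes overlap in their coordinates, so reads may have been shared between them.

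Transporters and detoxification genes came next. pgp-8, a P-glycoprotein (chromosome X, 10859351 to 10864422), was unlisted in all 4 controls and at 158, 176 and 168 CPM in depletion, at least 10.2-fold higher than at 18 h (adjusted p = 6e-09) and at least 21.5-fold higher than at 24 h. mrp-2, a multidrug resistance-associated transporter, was at 177 and 242 CPM at 18 h, 162 and 203 CPM at 24 h and 735, 825 and 650 CPM in depletion, a rise of 1.83 (SE 0.25, adjusted p = 2.8e-07). pgp-1 was at 138 and 290 CPM at 18 h, 92.3 and 84.6 CPM at 24 h and 513, 524 and 684 CPM in depletion, a rise of 1.44 (SE 0.26, adjusted p = 7.54e-05). None of these overlapped a control. Of 42 tested ABC transporter genes 9 were higher (5 and 6 without the first and the second 18 h library) and 3 lower than at 18 h. That is 28.6% called, against 13% among all genes. The median was -0.02, close to that of all genes, and 4 were above both ages.

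gst-24, a glutathione transferase, was unlisted in the first 18 h library, at 24.2 CPM in the second, at 63.6 and 54.4 CPM at 24 h and at 408, 521 and 354 CPM in depletion (log2 difference 4.96, SE 0.43, adjusted p = 2.42e-12). Of 29 tested glutathione transferases 4 were higher and 6 lower than at 18 h, and the 6 became 2 and 1 without the first and the second 18 h library. The share called in either direction was 34.5%, against 13% among all genes. Of 34 tested cytochrome P450 genes 3 were higher (0 without the first 18 h library) and 0 lower. That is a share of 8.82%, against 13% among all genes. The median was 0.89 as fitted and 0.02 when the 12 members unlisted in a whole group were placed at their bound. cyp-13A2, unlisted at 18 h and at 47.6, 59.6 and 64.8 CPM in depletion, was at least 3.48-fold higher (adjusted p = 0.00235, and 0.0523 without the first 18 h library).

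Nuclear pore and lamina genes, a list drawn up after these values were seen, had 15 of 45 tested members higher than at 18 h and 0 lower (median 0.68, or 0.62 at the bound), 9 higher than at 24 h and 8 above both ages. The share called against 18 h was 33.3%, with 13% among all genes. As the list followed the values, these counts describe it and test nothing. npp-9, the nucleoporin related to vertebrate RANBP2, was at 173 and 188 CPM at 18 h, 213 and 226 CPM at 24 h and 627, 612 and 455 CPM in depletion, a rise of 1.66 (SE 0.25, adjusted p = 3.45e-06). npp-21, related to vertebrate TPR of the nuclear basket, was at 237 and 157 CPM at 18 h, 232 and 282 CPM at 24 h and 647, 586 and 579 CPM in depletion, a rise of 1.60 (adjusted p = 4.39e-06). npp-10 rose by 1.69 (adjusted p = 9.59e-06), from 153 and 90.7 CPM to 417, 380 and 402 CPM. In each of these the hypodermal libraries lay above every control library. The inner nuclear membrane gene lem-2 was unlisted and at 18.1 CPM in the 18 h controls, at 63.6 and 68.5 CPM at 24 h and at 132, 176 and 127 CPM in depletion, so it rose with age in controls (adjusted p = 0.0116) and was above both ages in depletion (adjusted p = 8e-07 and 0.0122). npp-8, a further member, was close to the threshold (adjusted p = 0.0455) and lost its call without either 18 h library, with adjusted p of 0.0893 and 0.253.

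Genes of nucleotide synthesis and of the largest RNA polymerase subunits were also lists drawn up after values were seen. Each had 2 members above both ages, and among all genes the share was 0.974%. As the lists were drawn up after the values were seen, these counts describe them and test nothing. Of 10 tested nucleotide synthesis genes 2 were higher and 1 lower than at 18 h. Of 8 tested polymerase genes 2 were higher and 0 lower. pyr-1, the multifunctional enzyme that starts pyrimidine synthesis, was at 242 and 157 CPM at 18 h, 191 and 262 CPM at 24 h and 631, 673 and 697 CPM in depletion, a rise of 1.72 (SE 0.25, adjusted p = 1.16e-06). pfas-1, of purine synthesis, was at 14.8 CPM and unlisted at 18 h and at 91.9, 71 and 73.9 CPM in depletion (adjusted p = 0.00093). The largest subunit of RNA polymerase II, ama-1, was at 311 and 417 CPM at 18 h, 566 and 679 CPM at 24 h and 1168, 977 and 853 CPM in depletion, a rise of 1.47 (adjusted p = 6.95e-06), and rpb-2 rose by 1.22 (adjusted p = 0.000371). For ama-1 the 24 h controls stood above the 18 h controls by 0.79 (adjusted p = 0.0711, short of the threshold), and depletion lay above both.

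Among the remaining genes above both ages are ones picked after their values were seen. npa-1, a secreted polyprotein that binds fatty acids and retinol, was at 1558 and 1494 CPM at 18 h, 1528 and 1670 CPM at 24 h and 3225, 3287 and 3318 CPM in hypodermal depletion, a rise of 1.10 (SE 0.20, adjusted p = 5.48e-05). Global depletion had 1384 and 1374 CPM. zig-4, a secreted immunoglobulin-domain protein, was unlisted and at 18.1 CPM at 18 h and at 89.5, 109 and 106 CPM in depletion (log2 difference 3.20, adjusted p = 0.000128). scl-2, of the sperm-coating protein-like family, was at 49.3 and 24.2 CPM at 18 h and at 143, 147 and 218 CPM in depletion (log2 difference 2.14, adjusted p = 0.000347). By the naming rule, the cathepsin L gene cpl-1 was at 330 and 127 CPM at 18 h, 248 and 423 CPM at 24 h and 602, 742 and 746 CPM in depletion (log2 difference 1.57, adjusted p = 3.92e-05). mua-3, a fibrillin-like receptor that anchors the hypodermis to the cuticle over muscle, was at 261 and 181 CPM at 18 h and 563, 500 and 393 CPM in depletion, a rise of 1.12 (adjusted p = 0.00154, and 0.0617 without the second 18 h library). Of 20 tested genes of epidermal attachment and junctions 3 were higher and 0 lower than at 18 h, a share of 15% against 13% among all genes. Without the first and the second 18 h library 2 and 0 were higher.

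**Figure D4:**
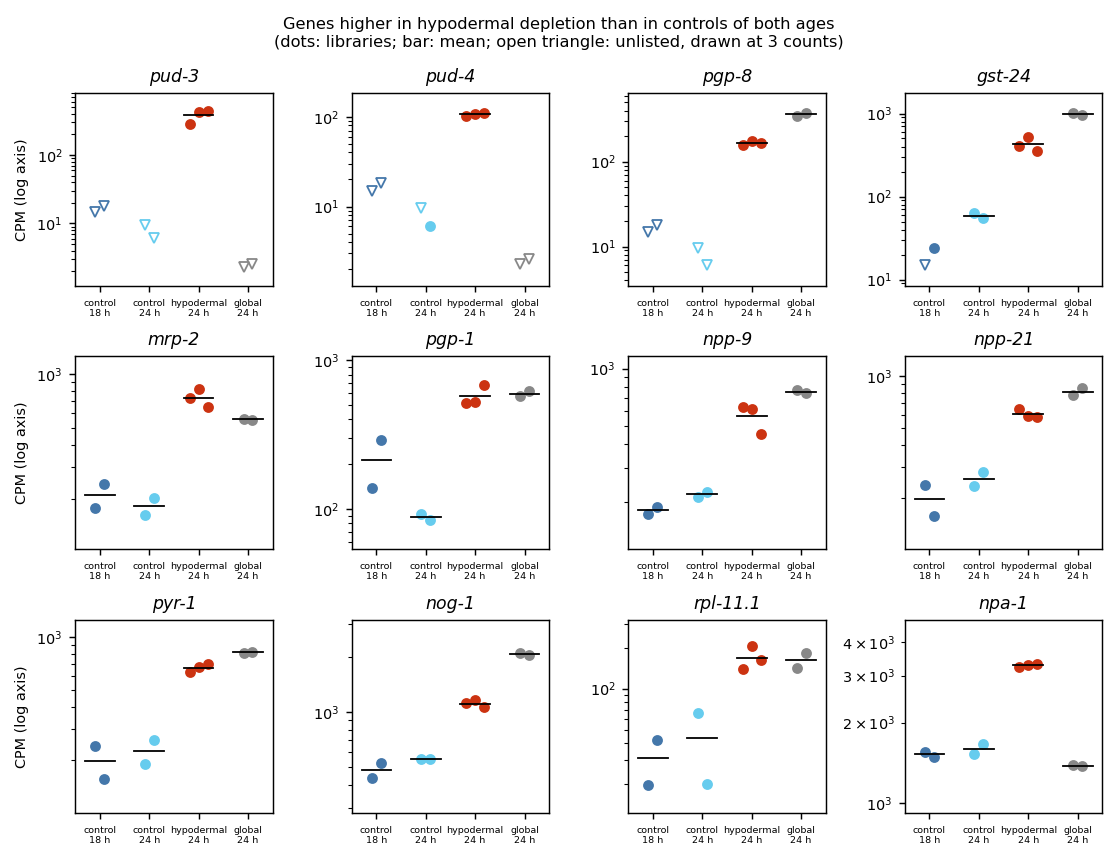
CPM (log axis) of 12 genes higher in hypodermal depletion than in controls of both ages, by group, with dots for libraries, bars for means and open triangles for unlisted libraries drawn at 3 counts. pud-3 and pud-4 are unlisted in global depletion while pgp-8, npp-9 and pyr-1 are raised there too, and npa-1 lies at 3225 to 3318 CPM in hypodermal depletion and at 1374 to 1670 CPM in all other libraries.

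Most calls among growth-related lists were higher than at 18 h, and few of these genes were called against 24 h. Of 32 tested proteasome subunits 16 were higher and 0 lower than at 18 h (median log2 difference 1.14). That is 50% called, against 13% among all genes. Against 24 h edgeR called 2 higher and 0 lower, with 18 higher and 0 lower at an unadjusted p under 0.05. The median against 24 h was 0.59, beside 0.04 over all genes tested. rpn-7, a subunit of the regulatory particle, was at 24.7 and 18.1 CPM at 18 h, 92.3 and 66.5 CPM at 24 h and 106, 135 and 135 CPM in depletion (log2 difference 2.51, SE 0.46, adjusted p = 8.25e-05). rpt-2, an ATPase of the same particle, was at 113 and 133 CPM at 18 h, 239 and 250 CPM at 24 h and 349, 368 and 337 CPM in depletion (log2 difference 1.52, adjusted p = 5.6e-05, and 0.52 with adjusted p = 0.183 against 24 h). Of the 2, rpn-7 also rose with age in the controls (adjusted p = 0.0402), and for rpt-2 the controls of the 2 ages missed the threshold (adjusted p = 0.0533). Without the first 18 h library 7 proteasome subunits were called.

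Of 39 tested translation factors 12 were higher and 0 lower than at 18 h (median 0.58), and of 20 aminoacyl-tRNA synthetases 7 were higher and 0 lower (median 0.83). These are 30.8% and 35% called, against 13% among all genes. Against 24 h, 1 translation factor was higher, and 0 synthetases were called by edgeR or DESeq2, with 2 higher at an unadjusted p under 0.05. eif-2A was at 98.6 and 127 CPM at 18 h, 213 and 179 CPM at 24 h and 286, 289 and 282 CPM in depletion (log2 difference 1.35, adjusted p = 0.000478). dars-1, the aspartyl-tRNA synthetase, was at 69 and 48.4 CPM at 18 h, 156 and 155 CPM at 24 h and 147, 229 and 222 CPM in depletion (log2 difference 1.73, adjusted p = 0.000358), with replicate 1 just below the 24 h controls and the others above them. Calls among translation factors dropped to 3 without either 18 h library and among the synthetases to 4.

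Because RPOA-2 acts in ribosome production, its partners are given separately. Of 10 tested RNA polymerase I subunits 1 was higher than at 18 h and 0 lower, a share of 10% against 13% among all genes. The gene was rpoa-1, at 242 and 290 CPM against 528, 418 and 354 CPM (log2 difference 0.72, SE 0.24, adjusted p = 0.0421). This call was lost in 10 of the alternatives, with adjusted p of 0.251 and 0.0844 without the first and the second 18 h library. Of 42 ribosome biogenesis factors 13 were higher and 0 lower than at 18 h (median 0.58, or 0.56 at the bound), a share of 31%. Against 24 h edgeR called 1 higher and 0 lower, with 10 higher and 1 lower at an unadjusted p under 0.05. The list is a selection, so genes of this process outside it were not counted. Of the 42 factors on it, 1 was above both ages. This was the GTPase gene nog-1, at 434 and 526 CPM at 18 h, 551 and 552 CPM at 24 h and 1115, 1156 and 1056 CPM in depletion (log2 difference 1.21, SE 0.21, adjusted p = 4.65e-05). Without the first and the second 18 h library 4 and 8 biogenesis factors were called.

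Ribosomal protein genes differed by small amounts. Of 80 tested, 11 were higher and 0 lower than at 18 h (13.8% against 5.47% higher among all genes), with a median of 0.36. Against 24 h 1 was higher and 1 lower. The count against 18 h was 1 without the first 18 h library and 43 with unlisted counts as 0. rpl-36 was at 281 and 375 CPM at 18 h, 541 and 451 CPM at 24 h and 486, 725 and 675 CPM in depletion (log2 difference 0.94, adjusted p = 0.00445, and 0.11 without the first 18 h library). The variant gene rpl-11.1 stood apart from the family, at 19.7 and 42.3 CPM at 18 h, 66.8 and 20.1 CPM at 24 h and 140, 204 and 162 CPM in depletion (log2 difference 2.48, SE 0.45, adjusted p = 8.33e-05), above both ages. It has a close paralog with which reads may have been shared. Of 67 tested mitochondrial ribosomal protein genes, edgeR and DESeq2 called 0 against 18 h, with 3 higher and 1 lower at an unadjusted p under 0.05.

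**Figure D5:**
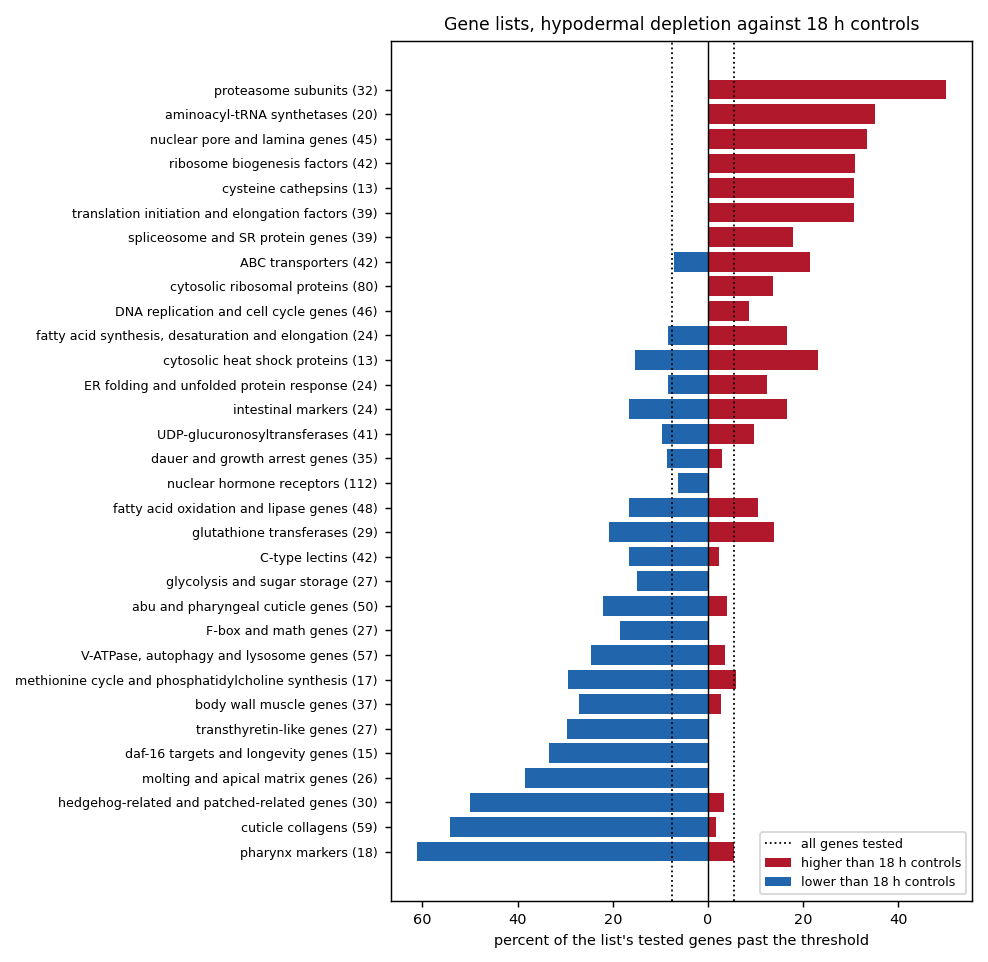
Percent of each list's tested genes higher (right) or lower (left) than in the 18 h controls, for lists with at least 10 tested genes and at least 4 calls, with the number tested in parentheses. Dotted lines mark the shares among all genes tested, 5.47% higher and 7.49% lower. Pharynx markers, collagens and hedgehog-related genes extend farthest to the left and proteasome subunits farthest to the right.

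Pharynx and muscle lists held many calls against 18 h and none by edgeR against 24 h. Of 18 tested pharynx markers 11 were lower (6 and 7 without the first and the second 18 h library) and 1 higher than at 18 h (median -0.83). That is 66.7% called, against 13% among all genes. Against 24 h edgeR and DESeq2 called 0, with 1 higher and 3 lower at an unadjusted p under 0.05. phat-5, a secreted pharyngeal gland protein, was at 316 and 224 CPM at 18 h, 54.1 and 34.2 CPM at 24 h and 25, 20.8 and 28.5 CPM in depletion, a log2 difference of -3.47 from 18 h (SE 0.33, adjusted p = 4.8e-11). The 24 h controls differed from the 18 h controls by -2.66 (adjusted p = 1.61e-05). Of 37 body wall muscle genes 10 were lower and 1 higher than at 18 h (median -0.36), a share of 29.7%. Against 24 h edgeR called 0, with 1 higher and 3 lower at an unadjusted p under 0.05 and 1 lower by DESeq2. The muscle count was 4 and 3 lower without the first and the second 18 h library and 14 by DESeq2. mup-2, troponin T, was at 2613 and 2734 CPM at 18 h, 1725 and 2107 CPM at 24 h and 1368, 1379 and 1329 CPM in depletion (log2 difference -0.98, adjusted p = 0.000181).

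Transthyretin-like genes, a nematode family of small secreted proteins, had 8 of 27 tested members lower (5 without the first 18 h library) and 0 higher than at 18 h, and 1 higher than at 24 h. The share called against 18 h was 29.6%, with 13% among all genes. ttr-15 was at 1371 and 932 CPM at 18 h, 175 and 201 CPM at 24 h and 175, 288 and 294 CPM in depletion, a log2 difference of -2.21 from 18 h (SE 0.22, adjusted p = 2.28e-10) with a log2 difference of 0.40 from 24 h (adjusted p = 0.413). The 24 h controls differed from the 18 h controls by -2.61 (adjusted p = 4.6e-09). V-ATPase, autophagy and lysosome genes had 14 of 57 members lower and 2 higher than at 18 h (median -0.41), with 5 lower without the second 18 h library. Their share called was 28.1%. lgg-1, the autophagosome protein related to vertebrate GABARAP, was at 636 and 514 CPM at 18 h, 312 and 203 CPM at 24 h and 120, 142 and 171 CPM in depletion, below both ages (log2 difference -2.01, adjusted p = 6e-09, and -0.83 with adjusted p = 0.024 against 24 h). In ttr-15 and lgg-1 both 24 h controls also stood below both 18 h controls.

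Markers of other cell types were summed in each library. Intestinal markers stood at 22773 and 26222 CPM at 18 h and at 22115, 21038 and 27122 CPM in depletion. Neuronal markers stood at 4709 and 4766 against 3895, 3776 and 3254 CPM. Pharynx markers stood at 16877 and 15564 against 14744, 11614 and 8633 CPM, and body wall muscle genes at 66388 and 71225 against 64541, 57722 and 48663 CPM. Germline and early embryo genes stood at 468 and 490 against 627, 538 and 548 CPM. The pharynx, muscle and neuronal sums were lower in all 3 hypodermal libraries than in both 18 h controls, and lowest in replicate 3, while the intestinal ranges overlapped. In the 24 h controls pharynx markers stood at 11193 and 14018 CPM and muscle genes at 50989 and 62010 CPM, within the hypodermal ranges. Neuronal markers stood there at 4115 and 4175 CPM, above the hypodermal range. Of 24 tested intestinal markers 4 were higher and 4 lower, each becoming 2 without either 18 h library, a share of 33.3% called in the full fit. Of 31 neuronal markers 3 were lower (0 without the second 18 h library) and 0 higher, a share of 9.68% against 13% among all genes. Genes of epidermal attachment and junctions, the list closest to a hypodermal reference here, summed to 17843 and 18026 CPM at 18 h and to 19668, 15925 and 12932 CPM in depletion. The collagen sums differed by more than that list's, but 3 of its 20 tested members were themselves higher than at 18 h, so it is not a fixed reference. The part of cell composition in the results above was not tested.

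Global depletion, measured at the same time and IAA dose, shares neither TIR1 driver nor libraries with hypodermal depletion and was compared with it directly. Of the 8006 genes, 350 differed between the 2 depletions (4.37%), 240 higher (3%) and 110 lower (1.37%) in hypodermal depletion. Molting and apical matrix genes had 9 of 26 members higher and 0 lower in hypodermal depletion: mlt-11 was at 12.1 and 6.02 CPM in global depletion, with hypodermal depletion higher by 1.80 on the log2 scale (adjusted p = 0.00076), and sym-1 at 10.6 and 4.3 CPM (adjusted p = 1.24e-05). Collagens were split, with 3 higher and 8 lower in hypodermal depletion. col-160 was at 500 and 516 CPM in global depletion, and the log2 difference of hypodermal minus global depletion was -1.14 (adjusted p = 7.79e-05). Intestinal markers had 12 of 24 members and cysteine cathepsins 7 of 13 higher in hypodermal depletion, with cpl-1 at 145 and 157 CPM in global depletion (log2 difference 2.20, adjusted p = 5.15e-09). Against the same 18 h controls, global depletion had 1165 calls (14.6%), 481 higher (6.01%) and 684 lower (8.54%), and as both depletions share those control libraries no overlap of the call lists is given.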

How the data were processed

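RNA from whole animals was sequenced, and the authors deposited whole-number counts per gene with no normalization and no count below 3, per the file headers and values. Per the labels' protocols, Trizol extracts were depleted of rRNA by RNase H before SMARTER library preparation. The submitters' processing notes name WBcel235 and DESeq2. How reads were aligned and counted, whether by strand, and what was done with reads shared between genes is not given in the sources used here. The table names 10 libraries, and 1 that matches no sample was not used.

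Library totals ran from 166455 to 2134185 counts. In edgeR 4.0.16 (R 4.3.3), genes were filtered with filterByExpr (minimum count 10, minimum total 15), unlisted counts entered as 1, TMM factors were applied and all 9 libraries were fitted together with a term for each of 4 groups, by the robust quasi-likelihood method. Adjusted p is Benjamini-Hochberg over the 8026 genes tested, with a threshold of 0.05, and the biological coefficient of variation was 0.203. CPM values carry TMM factors. Folds against a group unlisted throughout are lower bounds with 3 counts in each unlisted library, with no allowance for counting error. Scripts were tested on simulated data.

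The comparison, the 54 gene lists and the alternatives were chosen with earlier results of these data known, and 3 further lists after values were seen. Genes named were rpoa-2 and col-10, then eef-1A.1, unc-54 and unc-119. Candidates added to these were the 12 largest rises and 12 largest falls without overlap and with at least 10 CPM. Further candidates were up to 4 called genes per list and the 8 with the smallest adjusted p outside both ages in each direction. Not all candidates are described. Left out of the largest rises were vrk-1, nud-1, pcp-5, B0205.6, aly-1 and tbc-2, and of the largest falls F49F1.7, W02H5.16, col-180 and fbxc-51. Genes named outside this rule are said to have been picked after their values were seen. Of 13246 identifiers, 13153 were in the gene name table. Alternatives were median-of-ratios and total-count scaling, DESeq2 1.42.0, other filters and values for unlisted counts, a fit of the 5 libraries alone, a replicate block, thinning and leaving out each library.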

Additional observations from a re-analysis of the deposited data

Results flagged for a closer look

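Levels differed between hypodermal and global depletion in 350 of the 8006 genes (4.37%) by edgeR's quasi-likelihood test. The TIR1 driver differs between these groups too, and its own effects cannot be told apart from those of where RPOA-2 was depleted. Of the 84 genes named here and tested, 26 were among the 350, 16 higher and 10 lower in hypodermal depletion. Many were named for their levels in the same hypodermal libraries, so the 26 cannot be read against the share among all genes. The values that follow are log2 differences of hypodermal minus global depletion. pud-3 and pud-4 were listed in all 3 hypodermal libraries and in neither global library, with fitted differences of 8.67 and 6.82 that depend on the value given to unlisted counts, as does that of mlt-10 (3.10), also unlisted in both global libraries. scl-2 differed by 5.83, with 4.52 CPM in 1 global library and unlisted in the other. Among matrix and molting genes, hypodermal depletion was higher by 1.80 for mlt-11, 2.52 for sym-1, 2.22 for noah-1 and 2.10 for noah-2.

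It was also higher by 2.20 for cpl-1, 1.76 for mua-3, 1.25 for npa-1, 1.92 for zig-4, 1.27 for cyp-13A2, 1.07 for pfas-1 and 0.68 for spp-17. C40H1.8, which was higher than at both control ages in hypodermal depletion, was 1.47 higher there than in global depletion (50.5, 66.3 and 75.2 against 27.1 and 18.1 CPM, adjusted p = 0.0116).

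In the other direction, the difference was -1.22 for gst-24 (408, 521 and 354 against 1028 and 966 CPM), -1.12 for pgp-8, -0.90 for nog-1, -2.74 for clec-67 and -1.40 for grd-10. Among collagens it was -1.14 for col-160, -1.08 for col-107, -0.99 for col-39 and -0.82 for col-42. C18H7.1 differed by -1.38 (7.22, 12.7 and 11.7 against 23.4 and 30.1 CPM), and at 444 and 284 CPM in the 18 h controls it was above both depletions.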

How the results depend on the processing

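The counts moved with the shallow controls more than with the scaling, and the balance of higher and lower calls depended on the value given to unlisted counts and on the filter. Of the 600 genes lower than at 18 h, 9 had the opposite sign without the first 18 h library, 3 of them among the genes below both ages, and 1 without the second. Leaving out each library in turn gave 506 to 1113 calls, 214 to 521 higher and 292 to 594 lower, with 46 to 67 genes above both ages, 96 to 148 below both and 0 to 1 between the ages. The lowest totals came without the first (506) and the second (627) 18 h library. With all libraries thinned to 166455 counts, 676 genes were called, 297 higher and 379 lower, with 41 above and 85 below both ages. DESeq2 called 251 higher and 703 lower. With unlisted counts as 0, 970 were higher and 285 lower, with 79 below both ages. The genes between the ages, 0 in the fit reported, numbered 2 with unlisted counts as 0 and 1 with median-of-ratios size factors, total-count scaling, DESeq2, unlisted counts as 2 or only genes listed in all 5 libraries, the last chosen after seeing the data. Of the 438 and 600 genes higher and lower than at 18 h, 317 and 600 were also called with median-of-ratios size factors, and with no filter beyond listing 541 were higher and 497 lower. Controls and hypodermal libraries share replicate numbers, and same-numbered libraries deviated together by correlations of 0.0739 and 0.0205 over 2 pairs. With 2 control libraries the deviations from their mean mirror each other, so these values cannot decide whether the libraries were paired. With the replicate block 817 genes were called, 340 higher and 477 lower, with 52 above and 104 below both ages and 1 between them. In the 18 h libraries 3 counts stood for 14.8 and 18.1 CPM, and levels below these were not measured there.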

Other observations

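Single peptide and lectin genes departed from the 18 h controls. nlp-24, a neuropeptide-like gene, was at 375 and 411 CPM at 18 h, 79.6 and 42.3 CPM at 24 h and 16.8, 15.4 and 28.5 CPM in hypodermal depletion. By edgeR's quasi-likelihood test it had log2 differences of -4.35 from 18 h (SE 0.32, adjusted p = 7.56e-15) and of -1.61 from 24 h (adjusted p = 0.0045). nlp-77 was at 878 and 647 CPM at 18 h, 471 and 431 CPM at 24 h and 205, 214 and 205 CPM in depletion (log2 difference -1.88, adjusted p = 8.27e-09). Both were below every control library, and they were the 2 genes called among 57 tested neuropeptide and insulin-like genes, a share of 3.51% against 13% among all genes. The C-type lectin gene clec-67 was at 577 and 429 CPM at 18 h, 404 and 350 CPM at 24 h and 147, 133 and 175 CPM in hypodermal depletion. Global depletion had 1079 and 929 CPM, so one depletion lay below every control library and the other above. Hypodermal depletion was below global depletion by -2.74 on the log2 scale (adjusted p = 1.46e-14). Of 42 tested lectins 7 were lower (4 without either 18 h library) and 1 higher than at 18 h, a share of 19% against 13% among all genes.

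A few genes of other lists were higher in hypodermal depletion than at 18 h. The saposin-like gene spp-17 was at 118 and 121 CPM at 18 h, 465 and 363 CPM at 24 h and 566, 821 and 704 CPM in depletion (log2 difference 2.54 from 18 h, SE 0.27, adjusted p = 1.15e-09, and 0.76 from 24 h, adjusted p = 0.0239), and it also rose between the controls of the 2 ages (adjusted p = 0.000117). acs-1, an acyl-CoA synthetase, was at 29.6 and 42.3 CPM, then 115 and 68.5 CPM, then 168, 196 and 227 CPM (log2 difference 2.46 from 18 h, adjusted p = 9.93e-06, and 1.14 from 24 h, adjusted p = 0.00793), above every control library, and the controls of the 2 ages differed by 1.32 (adjusted p = 0.118). DNA replication and cell cycle genes had 4 of 46 members higher than at 18 h (2 without either 18 h library) and 0 lower. This share of 8.7% compares with 13% called among all genes. At an unadjusted p under 0.05 there were 10 higher and 1 lower, and by DESeq2 1 and 0. The topoisomerase gene top-2 was at 98.6 and 145 CPM at 18 h, 210 and 318 CPM at 24 h and 335, 385 and 276 CPM in depletion (log2 difference 1.47 from 18 h, adjusted p = 0.000247, and 0.32 from 24 h, adjusted p = 0.506), so it overlapped the 24 h controls.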
